A study of Mus musculus with 6 samples.

Results

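The 33 genes described here are immediate early genes, chosen by name from the 24421 genes of a read count table: the FOS and JUN families, the EGR, KLF and NR4A transcription factors, and other genes of the rapid response. All 33 had a row. The RNA was that of femoral bone marrow from C57BL/6 mice labelled Dek -/-, after lineage depletion, a column step that takes out most mature blood cells and leaves progenitors. Vehicle-treated cells gave 3 libraries and DEK-treated cells gave 3, numbered 1 to 3 in each group. Both groups carry the same knockout, so no comparison here is with wild-type marrow. Dose, duration and protein source are not stated in the labels, nor are the age and sex of the animals, nor whether each library is a different animal. The p-values below therefore measure the spread between these libraries, which may be technical.

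Immediate early genes are transcribed within minutes of a stimulus, without prior protein synthesis. Kinases of the MAPK pathways phosphorylate factors that already sit on their promoters, such as SRF with its ternary complex partners and CREB on its cyclic AMP response element (CRE). FOS and JUN proteins then pair through leucine zippers to form AP-1, EGR proteins bind GC-rich sites, and NR4A proteins are nuclear receptors that need no known ligand. Other members end the response: DUSP1 dephosphorylates MAP kinases and ZFP36 hastens the decay of cytokine transcripts. In marrow, these genes are known to respond to cytokines, to adhesion and to the handling of cells.

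RefSeq promoter windows on GRCm38.p6, the build that mm10 denotes, were found for 27 of the 33 genes. Fosl1, Egr1, Egr3, Ier2, Klf10 and Myc had none. The windows are the 250 bases before a transcription start. Windows of the 3 genes that rose within pairs (below) and of Fos, the best known member, are shown because the letters TGACG, the half-site of the CRE, recur in them. Capitals mark TGACG and its reverse complement CGTCA.
Dusp1 promoter, chr17:26508473-26508722, minus strand: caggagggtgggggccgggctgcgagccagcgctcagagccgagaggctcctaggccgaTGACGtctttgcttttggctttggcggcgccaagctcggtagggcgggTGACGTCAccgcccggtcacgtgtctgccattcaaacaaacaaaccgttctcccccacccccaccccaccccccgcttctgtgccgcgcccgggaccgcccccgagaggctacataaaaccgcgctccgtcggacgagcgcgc
Nr4a1 promoter, chr15:101266596-101266845, plus strand: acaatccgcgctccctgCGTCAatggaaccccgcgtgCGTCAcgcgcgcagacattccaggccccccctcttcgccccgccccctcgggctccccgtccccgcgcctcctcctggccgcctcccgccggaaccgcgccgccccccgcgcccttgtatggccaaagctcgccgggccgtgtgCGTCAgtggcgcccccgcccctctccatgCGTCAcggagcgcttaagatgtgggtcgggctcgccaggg
Ppp1r15a promoter, chr7:45526269-45526518, minus strand: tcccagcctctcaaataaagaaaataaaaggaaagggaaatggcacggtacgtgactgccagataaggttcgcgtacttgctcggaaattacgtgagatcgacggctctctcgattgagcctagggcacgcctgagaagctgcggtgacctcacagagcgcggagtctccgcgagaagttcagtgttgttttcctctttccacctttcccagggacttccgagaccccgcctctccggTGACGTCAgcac
Fos promoter, chr12:85473640-85473889, plus strand: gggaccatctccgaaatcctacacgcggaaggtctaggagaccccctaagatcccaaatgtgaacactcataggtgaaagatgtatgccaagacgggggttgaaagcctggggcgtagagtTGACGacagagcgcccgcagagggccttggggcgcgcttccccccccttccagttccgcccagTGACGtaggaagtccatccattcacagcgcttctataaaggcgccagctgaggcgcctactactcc
The full CRE, TGACGTCA, which holds the half-site on both strands, lay 136 to 143 bases before the start of Dusp1 and 5 to 12 bases before that of Ppp1r15a. Nr4a1 had 4 separate half-sites and Fos 2. The full CRE was present for 4 of the 27 genes (Dusp1, Btg2, Maff and Ppp1r15a) and in 1.55% of all 32851 windows. A half-site was present for 17 of the 27 genes and in 17.8% of all windows. The EGR site GCGNGGGCG was found for 12 of 27 genes and in 4.70% of windows, the CArG box, the site of SRF, for 3 (Egr2, Zfp36 and Srf) and in 1.47%, and the AP-1 site TGANTCA for Csrnp1 and in 6.75%. Each motif was searched on both strands and within the 250 bases only. A gene without a motif here may therefore have one farther upstream, and genes without a window were not searched. Some genes had several windows, and the genes' windows were richer in G and C (median 64.6%) than all windows (52.4%), so these shares are a description and no test.

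Reads counted in genes came to between 34875736 and 49128378 per library. The libraries numbered 3 differed from the rest in neutrophil transcripts: the 11 such markers with a row summed to 6.53% (vehicle) and 5.83% (DEK) of their counts, and to between 0.656 and 0.876% of those of numbers 1 and 2. All 11 were above the threshold for a higher level in number 3. Progenitor markers such as Mpo and Elane were present in each library, and the 10 markers of stem and progenitor cells took 0.625 to 1.06% of counts. The alpha and beta globin genes Hba-a1, Hbb-bs and Hbb-bt were at 0 counts in all libraries. The other 5 of the 8 erythroid markers had counts in every library, 0.0312 to 0.0764% in sum. Why the globin genes had no counts was not tested, and they are not read as a lack of erythroid cells. Libraries of equal number were treated as pairs (see the processing), and values within pairs are edgeR fits with the number as a block. The labels do not state pairs. The values do not show which libraries numbered 1 and 2 belong together, so calls within pairs rest on an assumption.

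The 33 genes together took 0.264%, 0.275% and 0.380% of counts in vehicle replicates 1, 2 and 3, and 0.287%, 0.306% and 0.584% in DEK replicates 1, 2 and 3. Each share has a Wilson 95% interval of at most 0.00215 percentage points to either side, which covers counting error only. The DEK share was the higher one in 3 of 3 pairs, but the groups overlapped (exact two-sided permutation p = 0.5, where 3 libraries against 3 cannot go below 0.1). A single gene, Rn45s, held 2387290 counts in vehicle replicate 1 and 67711 to 162696 in the other libraries. That lowers every other share of vehicle replicate 1 and so widens the gap in pair 1. In these bulk samples, a change in the cells present and a change in RNA per cell cannot be told apart.

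After DEK treatment 3 of the genes rose within pairs: Nr4a1 1.86-fold, Dusp1 1.73-fold and Ppp1r15a 1.72-fold. None fell. At an unadjusted p under 0.05 within pairs, 12 were higher (6.03% of all genes) and 2 lower (5.42%). Of the 33, 32 passed the filter on low counts and Fosl1 did not. Among all 13803 genes tested, 0.869% rose and 0.413% fell within pairs. Without pairing, 0 of 32 genes passed in either direction (0% of all genes; adjusted p = 1.00 for each, edgeR), and 4 had an unadjusted p under 0.05 with a higher level (1.49% of all genes) and 2 with a lower one (1.12%). DESeq2 and limma-voom without pairing also called 0 (0.207% of all genes higher and 0.123% lower by DESeq2, 0% by limma-voom).

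The sign was more uniform than the calls. In 15 of the 32 genes DEK was the higher library in 3 of 3 pairs, against 16.3% of all genes tested, and in 2 it was the lower one in 3 of 3, against 17.9%. Without number 3, 16 were higher and 4 lower in both remaining pairs, against 28.3% and 30.5% of all genes. The median log2 fold change was 0.35 unpaired and 0.31 within pairs, against 0.0018 and -0.0028 for all genes tested. Pair medians of the 32 genes were 0.07, 0.29 and 0.57 for numbers 1, 2 and 3. The groups did not overlap, with DEK higher, for Junb, Nr4a1, Maff and Csrnp1 (3.78% of all genes) and, with DEK lower, for Klf10 and Rhob (3.41% of all genes).

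**Figure D1:**
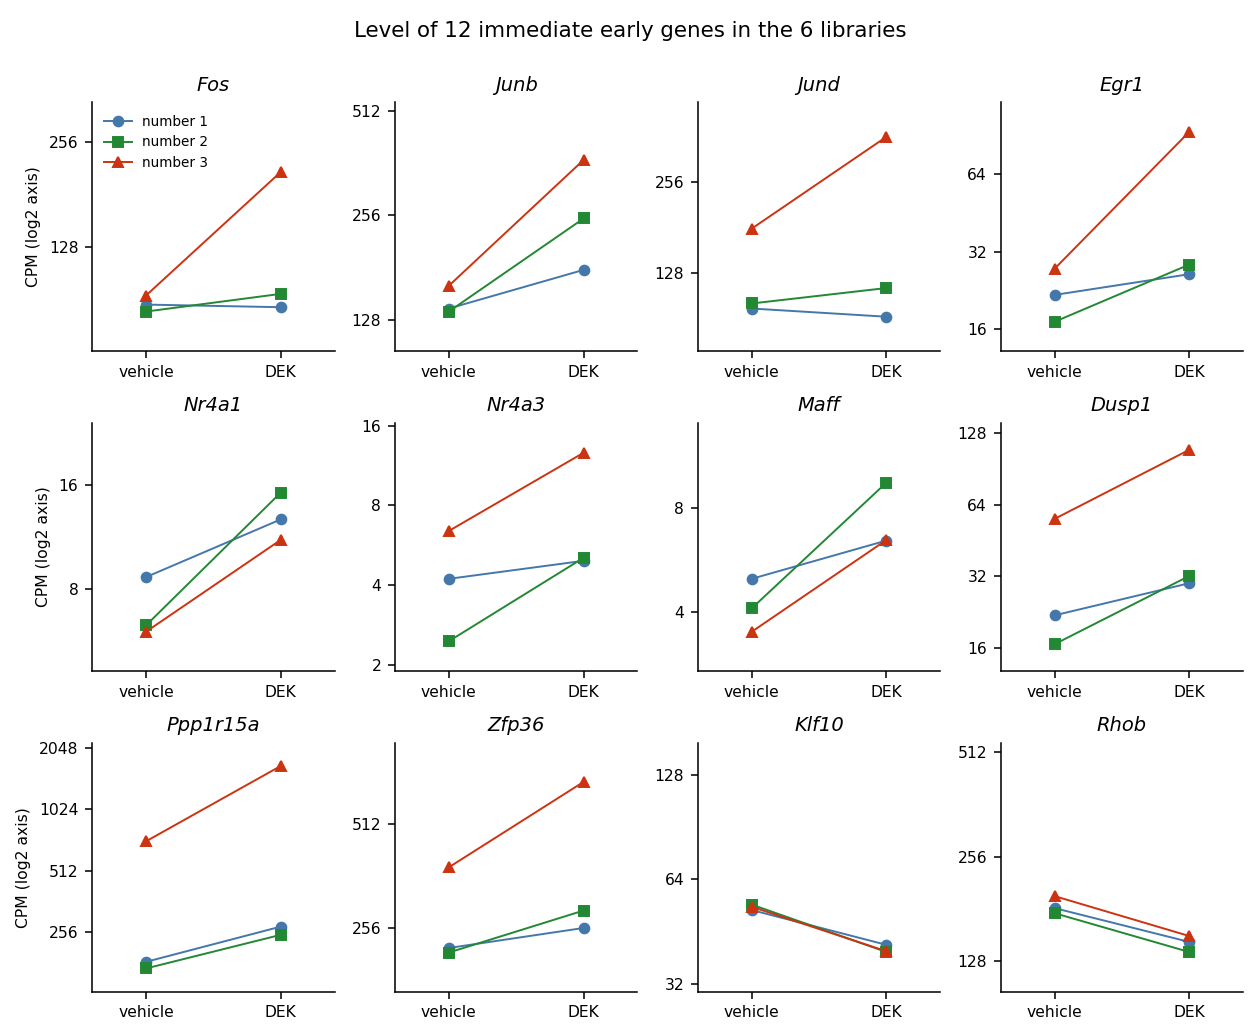
Level in CPM (log2 axis) of 12 of the genes in each library, vehicle on the left and DEK on the right of each panel. A line joins libraries of equal number. Junb, Nr4a1, Maff, Klf10 and Rhob keep the groups apart. For Ppp1r15a, Dusp1, Jund, Zfp36 and Nr4a3 both libraries numbered 3 lie above all others.

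The FOS family supplies the partners that cannot pair with themselves. Fos (chromosome 12, 85473901 to 85477270, plus strand, mm10; all positions are outer exon bounds in the table) stood at 87.2, 83.2 and 92.5 CPM with vehicle and at 85.7, 93.6 and 209.9 CPM with DEK. CPM is a read count relative to the library total, scaled by TMM. DEK replicate 3 was the only library above 93.6 CPM for Fos, and the other DEK libraries lay among or next to the vehicle ones. Fos had a log2 fold change of 0.44 ± 0.30 (SE) within pairs (adjusted p = 0.686, edgeR). Fosl2, which gives a FOS protein without the strong activation domain of FOS, ran from 143.6 to 198 CPM with vehicle and from 146 to 249 CPM with DEK. Its pair differences were small and of 1 sign, 0.03, 0.18 and 0.33 on the log2 scale. Fosb was near the limit of detection, with 18, 19 and 22 counts against 18, 14 and 25. Fosl1 had 1, 1 and 0 counts with vehicle and 5, 4 and 4 with DEK. It was not tested, and 1155 of its 1705 exonic bases overlap Ccdc85b on the opposite strand, where reads in both genes were left out of the counts. The 2 Fosl1 groups did not overlap, but 5 reads was the most in any library.

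JUN proteins pair with FOS or with each other. Junb (chromosome 8, 84976909 to 84978748, minus strand), known as a brake on the growth of myeloid cells, stood at 138, 135 and 160.5 CPM with vehicle and 178, 251 and 369.6 CPM with DEK. Every DEK library was above every vehicle library. Its log2 fold change was 0.82 ± 0.15 (SE) within pairs and its adjusted p was 0.0624 (edgeR), just outside the threshold. Without pair 1 or pair 3 its adjusted p was 0.00359 and 1.56e-05 (edgeR), with log2 fold changes of 1.05 and 0.63, and without pair 2 it was 0.813 (edgeR), with 0.80. Jun went from 52.7, 51.1 and 53.5 CPM to 37.8, 53.3 and 93.9 CPM, so its pairs differed in sign (-0.48, 0.06 and 0.81). Jund, a JUN gene known for steady expression, stood at 97.4, 101.3 and 179 CPM with vehicle and 91.5, 114 and 361 CPM with DEK. Here the libraries numbered 3 were the high ones in both groups.

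EGR proteins are zinc finger factors downstream of SRF. Egr1 (chromosome 18, 34861207 to 34864956, plus strand) was at 21.7, 17.1 and 27.5 CPM with vehicle and 26.2, 28.5 and 93.4 CPM with DEK. The groups overlapped, and the pair differences of 0.27, 0.74 and 1.76 were all positive (log2 fold change 0.92 ± 0.37 (SE), adjusted p = 0.512, edgeR within pairs). Without pair 3 its value was 0.50 with an adjusted p of 0.0200 (edgeR within pairs). Egr2, known for its part in macrophage fate, had differences of 0.36, 0.68 and 0.51 (adjusted p = 0.202, edgeR within pairs). Its counts were 212, 123 and 278 with vehicle and 247, 251 and 511 with DEK. Egr3 had 203, 108 and 82 counts against 166, 162 and 246, with pairs of both signs.

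The other leucine zipper genes differed from each other. Maff (chromosome 15, 79346621 to 79359076, plus strand) encodes a small MAF protein, which binds DNA but lacks an activation domain. It stood at 4.99, 4.10 and 3.51 CPM with vehicle and 6.43, 9.44 and 6.46 CPM with DEK, with no overlap (log2 fold change 0.81 ± 0.19 (SE), adjusted p = 0.0682, edgeR within pairs). Atf3, a stress-induced partner of JUN, averaged 40.4 ± 2.91 CPM (SD, n = 3) with vehicle and 40.4 ± 7.19 CPM (SD, n = 3) with DEK. Srf, the factor on which much of the response depends, was at 78.2, 81.7 and 80.3 CPM against 81.6, 104.3 and 84.0 CPM. DEK replicate 2 was the one library that stood out, and the difference was 0.16 ± 0.10 (SE) on the log2 scale (adjusted p = 0.582, edgeR within pairs).

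Of the NR4A receptors, Nr4a1 (chromosome 15, 101266846 to 101274794, plus strand) rose. It encodes NUR77, which is known to restrain inflammatory genes in monocytes and macrophages. Its level was 8.68, 6.30 and 6.04 CPM with vehicle and 12.7, 15.2 and 11.1 CPM with DEK. All 3 DEK libraries were above all 3 vehicle libraries, and number 3 was the lowest library of each group. Nr4a1 thus had a log2 fold change of 0.90 ± 0.16 (SE) within pairs (adjusted p = 0.0184, edgeR) and of 0.89 ± 0.21 (SE) unpaired. Nr4a3 was at 4.22, 2.45 and 6.40 CPM with vehicle and 4.93, 5.07 and 12.6 CPM with DEK. Its fold within pairs was 1.68 (adjusted p = 0.102, edgeR), and the groups overlapped. Nr4a2 stayed between 1.13 and 1.94 CPM in the 6 libraries (adjusted p = 0.722, edgeR within pairs).

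KLF proteins are zinc finger factors of GC boxes. The family had the lowest median of the groups with 3 or more genes, -0.04 within pairs. Klf10 (chromosome 15, 38291464 to 38300711, minus strand), first known as a gene induced by TGF-beta, stood at 52.2, 54.1 and 53.3 CPM with vehicle and 41.4, 39.5 and 39.7 CPM with DEK. Both groups were tight and did not overlap, at 53.2 ± 0.963 and 40.2 ± 1.06 CPM (SD, n = 3 each). Its log2 fold change of -0.40 ± 0.10 (SE) did not pass the threshold (adjusted p = 0.0711, edgeR within pairs). Klf4, a factor of monocyte differentiation, was at 78.8, 97.5 and 79.3 CPM with vehicle and 95.7, 109.3 and 53.9 CPM with DEK. It was higher with DEK in pairs 1 and 2 and lower in pair 3. Klf6 did the reverse, with 331, 339 and 399 CPM against 308, 249 and 533 CPM. Klf2, a regulator of leukocyte quiescence, ran from 48.1 to 91.2 CPM with vehicle and from 47.2 to 137 CPM with DEK, highest in number 3 each time.

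**Figure D2:**
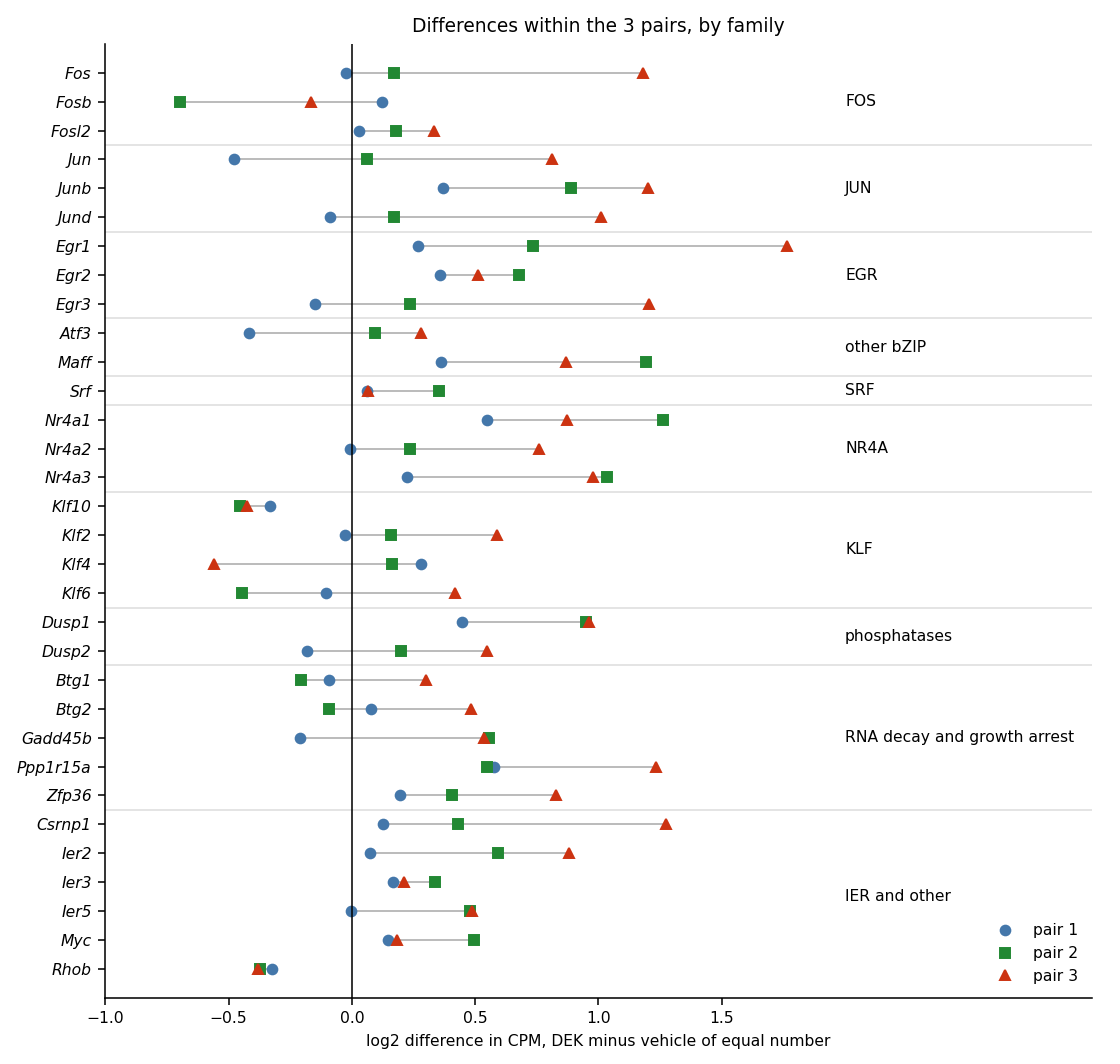
Log2 difference in CPM between the DEK and the vehicle library of equal number, for the 32 genes tested, grouped by family. Circles, squares and triangles are pairs 1, 2 and 3. Most points lie right of 0, pair 3 is the rightmost for Fos, Jun, Jund, Egr1 and Csrnp1, and Klf10 and Rhob lie left of 0 in all pairs.

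Dusp1 and Dusp2 encode phosphatases of the nucleus that switch off MAP kinases. Dusp1 (chromosome 17, 26505591 to 26508472, minus strand) stood at 22.0, 16.6 and 55.8 CPM with vehicle and 29.99, 32.2 and 108.9 CPM with DEK. In each pair the DEK library was the higher one, but vehicle replicate 3 exceeded DEK replicates 1 and 2. Its log2 fold change was 0.79 ± 0.12 (SE) within pairs (adjusted p = 0.0100, edgeR) and 0.86 ± 0.68 (SE) unpaired. Dusp2, best known from lymphocytes, was at 34.1, 30.04 and 12.5 CPM with vehicle and 30.03, 34.5 and 18.3 CPM with DEK. It was lowest in number 3 in both groups, unlike Dusp1.

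Genes of RNA decay, growth arrest and recovery of translation were among the most abundant. Per length, as RPKM (CPM per kilobase of exon, mean of 6 libraries), Ppp1r15a led with 233, followed by Zfp36 with 193 and Junb with 112. At the other end were Fosb with 0.121 and Fosl1 with 0.0321. The lead of Ppp1r15a came from the libraries numbered 3, at 306 (vehicle) and 718 (DEK). In numbers 1 and 2 it stood at 77.9 and 72.3 with vehicle and 116 and 106 with DEK. Zfp36 was higher in each of these, at 126 and 123 with vehicle and 145 and 163 with DEK. Ppp1r15a (chromosome 7, 45522917 to 45526268, minus strand) encodes GADD34, the phosphatase subunit that restores translation after stress. It stood at 182, 169 and 713 CPM with vehicle and 271, 247 and 1675 CPM with DEK. Both libraries numbered 3 were far above the other 4, and the DEK library was the higher one in each pair. Its log2 fold change came to 0.79 ± 0.14 (SE) within pairs (adjusted p = 0.0325, edgeR) and 1.04 ± 0.95 (SE) unpaired. Of its 2333 exonic bases, 11 overlap Tulp2 on the opposite strand, so the value carries that small uncertainty.

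Zfp36, the gene of tristetraprolin, was at 223, 216 and 384 CPM with vehicle and 255, 287 and 681 CPM with DEK (log2 fold change 0.48 ± 0.12 (SE), adjusted p = 0.109, edgeR within pairs). Gadd45b, which activates stress kinases, had pair differences of -0.21, 0.56 and 0.53. The antiproliferative genes Btg1 and Btg2 had log2 fold changes of 0.00 ± 0.11 and 0.16 ± 0.12 (SE), within the spread of the pairs (adjusted p = 0.999 and 0.659, edgeR). Their vehicle libraries ran from 233 to 335 and from 198 to 316 CPM, with number 3 highest.

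Among the rest, Rhob (chromosome 12, 8497759 to 8499985, minus strand), a small GTPase of endosomes, was lower with DEK in all pairs. It stood at 182, 176 and 197 CPM with vehicle and 145, 136 and 151 CPM with DEK, without overlap (log2 fold change -0.36 ± 0.09 (SE), adjusted p = 0.0887, edgeR within pairs). Csrnp1, a nuclear protein induced by AXIN, went from 33.5, 30.6 and 27.3 CPM to 36.6, 41.2 and 66.0 CPM. The groups did not overlap, yet DEK replicate 3 stood well above the other DEK libraries (adjusted p = 0.441, edgeR within pairs). Ier2 was at 84.9, 85.1 and 122 CPM against 89.3, 128 and 225 CPM (adjusted p = 0.207, edgeR within pairs). Ier3 and Ier5 had log2 fold changes of 0.24 ± 0.10 and 0.32 ± 0.11 (SE). Myc, the growth regulator, was at 73.8, 66.4 and 63.3 CPM with vehicle and 81.7, 93.7 and 71.9 CPM with DEK, higher in each pair (log2 fold change 0.28 ± 0.10 (SE), adjusted p = 0.282, edgeR within pairs).

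The calls within pairs moved with the pairs and the tool. Leaving out pair 1, 2 or 3 gave 6, 0 and 6 higher genes (1.03%, 0% and 2.37% of all genes tested), and without pair 2, 10 of the 32 had an unadjusted p under 0.05 by edgeR, 2 of them lower with DEK, against 4.82% of all genes tested in either direction. Nr4a1 and Dusp1 kept their calls without pair 1 and without pair 3, and Ppp1r15a kept its call without pair 3 only (adjusted p = 0.0619 without pair 1, edgeR). Without pair 2 the adjusted p of Nr4a1, Dusp1 and Ppp1r15a was 0.608, 0.504 and 0.486 (edgeR within pairs). DESeq2 within pairs called 7 higher and 2 lower (1.71% and 0.837% of all genes), the latter Klf10 and Rhob, and limma-voom called 4 higher (the same 3 and Junb) and 0 lower (0.898% and 0.341% of all genes).

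Replicate number accounted for more of the spread than treatment in 23 of the 32 genes, against 84.3% of all genes tested. Number 3 was higher than numbers 1 and 2 in 16 of the 32 genes and lower in 1, Dusp2 (edgeR with group and number as terms). Among all genes tested, 21.6% were higher and 17.7% lower. The median log2 difference of the 32 genes was 0.63, or 0.33 in the vehicle libraries and 0.85 in the DEK libraries, against -0.02 for all genes tested. Ppp1r15a was 5.18-fold higher in number 3 (log2 difference 2.37 ± 0.14 (SE), adjusted p = 1.92e-06, edgeR), Dusp1 3.19-fold, Jund 2.57-fold and Egr2 2.26-fold. All 5 genes of RNA decay, growth arrest and recovery of translation were higher there. In 21 of the 32 genes number 3 lay above the mean of the other 2 in both groups, against 38.5% of all genes tested. The neutrophil markers moved with the same libraries, by a median log2 difference of 3.10, and so did other marker lists. In number 3, 8 of 8 B-lineage, 7 of 7 basophil and mast cell and 7 of 8 eosinophil markers were lower, and 4 of 5 erythroid markers tested were higher (edgeR). The part of these cell types in the values of the immediate early genes was not tested.

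In a breakdown of the sum of squares of log2 CPM, the share between replicate numbers exceeded that between groups for 23 of the 32 genes, against 84.3% of all genes tested. Number has more levels than treatment, so its share tends to be the larger one even where neither has an effect. The median share of treatment was 17.1%, against 7.997% for all genes. Klf10 was at one end, with 98.3% of its sum of squares between groups, followed by Rhob with 88.1%, Nr4a1 with 82.0%, Maff with 75.1% and Junb with 63.1%. Their shares between numbers were 0.0912%, 11.4%, 9.25%, 11.5% and 25.8%. Treatment held 5.65e-05% for Btg1, the lowest, and 3.16% for Btg2, 4.77% for Klf2 and 10.9% for Ppp1r15a. The part in neither term was largest for Atf3, Egr3, Jun and Nr4a2, at 81.1%, 51.0%, 46.4% and 41.9%.

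**Figure D3:**
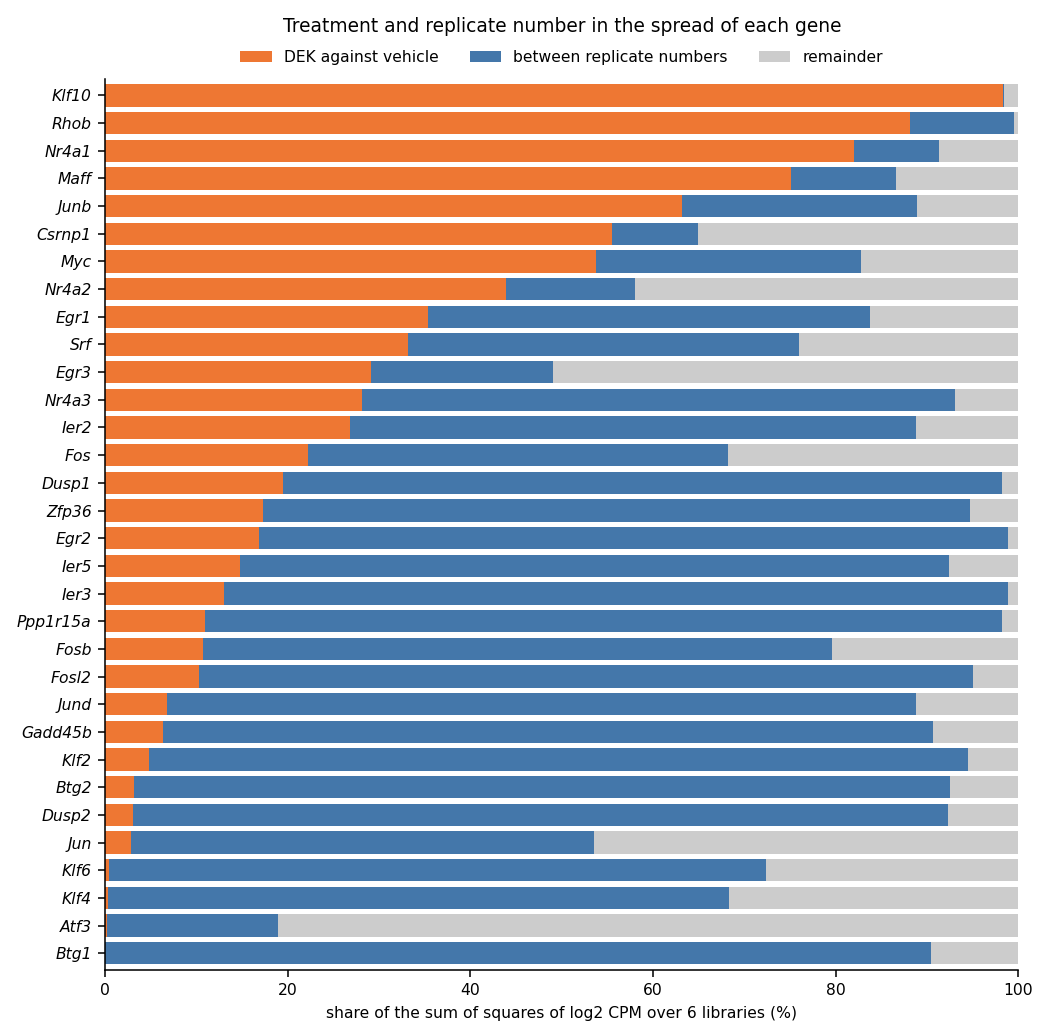
Share of each gene's sum of squares of log2 CPM over the 6 libraries that lies between DEK and vehicle, between replicate numbers, and in the remainder. The largest share lies between DEK and vehicle for Klf10, Rhob, Nr4a1, Maff, Junb, Csrnp1, Myc and Nr4a2. Of these, only Nr4a1 passed within pairs. For Btg1, Btg2 and Klf2, among others, the largest share lies between numbers.

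Whether the difference between DEK and vehicle itself depended on the number was tested as an interaction with number 3, which leaves 2 residual degrees of freedom. None of the 32 genes passed (0% of all genes in either direction, edgeR). At an unadjusted p under 0.05, 11 had a larger difference in number 3 (5.21% of all genes) and 1, Klf4, a smaller one (2.25%). Fos had the lowest adjusted p, 0.079, with a log2 difference of differences of 1.11 ± 0.19 (SE). Egr1, Jun and Csrnp1 had 1.27 ± 0.25, 1.00 ± 0.27 and 0.99 ± 0.22 (SE), with adjusted p of 0.132, 0.291 and 0.170 (edgeR). For Nr4a1, Klf10 and Rhob the values were -0.02 ± 0.35, -0.03 ± 0.20 and -0.04 ± 0.18 (SE).

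**Figure D4:**
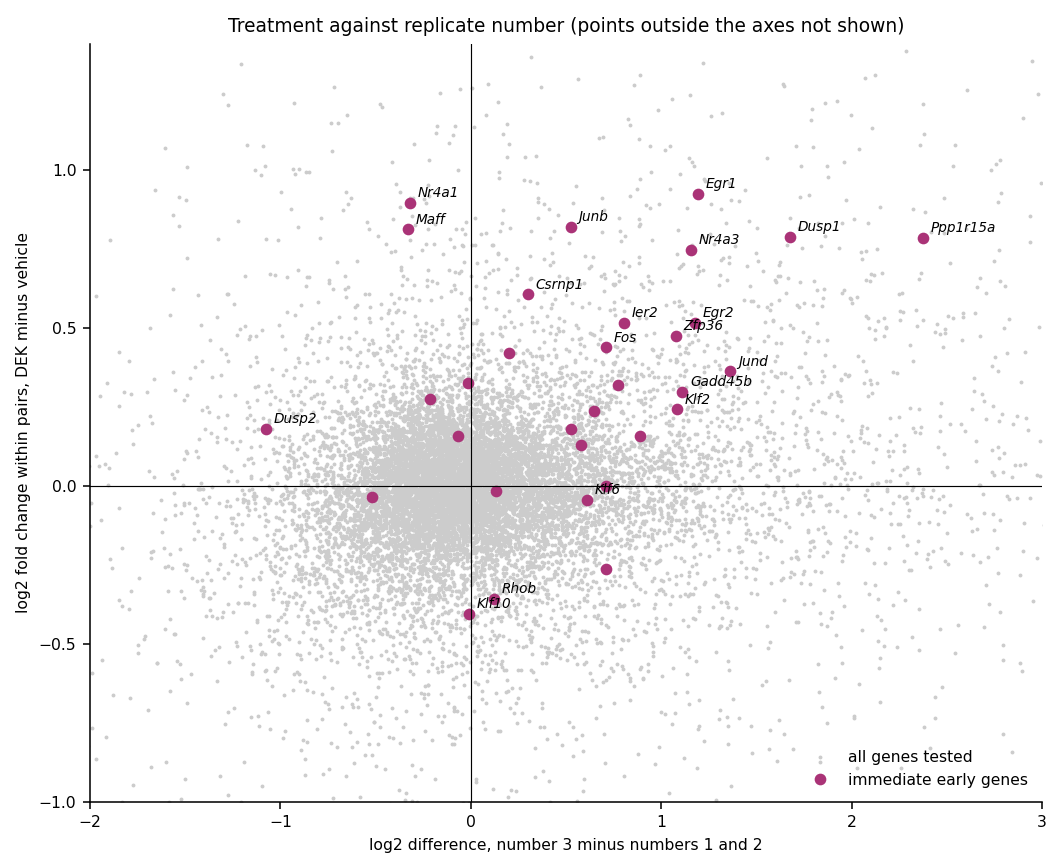
Log2 fold change within pairs (DEK minus vehicle) against the log2 difference of number 3 from numbers 1 and 2, for all genes tested (grey, 375 outside the axes) and the 32 immediate early genes. Dusp1 and Ppp1r15a are high on both axes, Nr4a1 and Maff are high on the vertical axis and slightly left of 0 on the horizontal one.

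Other genes of the pathway were set beside these values, in lists chosen with earlier results of these data known. Of 25 upstream regulators (ternary complex factors, CREB family, MAP kinases and the kinases around them), 0 rose and 0 fell within pairs, with a median log2 fold change of -0.02. The 2 with the smallest p were Mapkapk2, a kinase activated by p38 that stabilises cytokine transcripts, and Rps6ka4, a kinase of CREB and histone H3, with log2 fold changes of 0.43 ± 0.12 and 0.35 ± 0.11 (SE; adjusted p = 0.129 and 0.185, edgeR). Of 21 partners, relatives and feedback genes, 20 were tested and 0 passed, with a median of 0.07. Nab1, a corepressor of EGR proteins, had 104.6, 93.8 and 89.2 CPM with vehicle and 127.5, 121.4 and 117.7 CPM with DEK (adjusted p = 0.0981, edgeR within pairs), and Mafg had a log2 fold change of 0.30 ± 0.10 (SE).

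Of 13 rapid inflammatory genes, 12 were tested, and 6 rose and none fell within pairs (0.869% and 0.413% of all genes tested). This list and that of the heat shock genes below were also chosen with earlier results known. The median log2 fold change was 0.79. Those that rose were Il1b, Nfkbia, Tnfaip3, Icam1, Nfkbiz and Ptgs2. Without pairing 0 of the 12 passed, and Il1b and Ptgs2 had log2 fold changes of 1.98 ± 1.02 and 1.88 ± 1.18 (SE). Il6 and Ccl3 were lower within pairs, at -0.31 and -0.19, and did not pass. Icam1, an adhesion molecule, stood at 75.2, 63.5 and 51.5 CPM with vehicle and 117, 162 and 123 CPM with DEK. Nfkbia, Tnfaip3 and Icam1 did not overlap between groups, as Nr4a1 did not (3.78% of all genes, DEK higher). Tnf did not overlap either, but it did not pass (2.76-fold within pairs, adjusted p = 0.148, edgeR). Il1b, Nfkbiz and Ptgs2 were highest in number 3, as Dusp1 and Ppp1r15a were. Heat shock genes, which also respond to handling, had 0 of 10 tested past the threshold within pairs and a median of 0.18. Bag3 and Dnajb1 had the smallest p, with log2 fold changes of 0.35 ± 0.11 and 0.20 ± 0.09 (SE; adjusted p = 0.175 and 0.452, edgeR). Hspa1a and Hspa1b, inducible chaperone genes that are near-identical copies and so uncertain in their counts, had larger values, 0.74 ± 0.33 and 0.53 ± 0.33 (SE; adjusted p = 0.46 and 0.617, edgeR). Both are named after their values were seen, and both were higher in number 3, by 4.13-fold and 4.50-fold (adjusted p = 0.00266 and 0.00303, edgeR). The list as a whole was not: 2 of the 10 were higher in number 3 and 2 lower (21.6% and 17.7% of all genes tested). The lower ones were Hspa8 and Hsp90ab1, with log2 differences of -0.50 and -0.42 (adjusted p = 0.00409 and 0.0102, edgeR). The median log2 difference of the 10 was -0.01.

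Markers of other cell types were examined beside these results. The 12 monocyte and macrophage markers took 0.439 to 0.562% of counts with vehicle and 0.498 to 0.653% with DEK. Within pairs 2 of them rose and 3 fell (0.869% and 0.413% of all genes tested). The 8 eosinophil markers took 0.449 to 1.44% with vehicle and 0.299 to 1.17% with DEK, and 2 fell. All 8 were lower with DEK in 3 of 3 pairs, against 17.9% of all genes tested, with a median log2 fold change of -0.50. The 7 basophil and mast cell markers took 0.132 to 0.377% with vehicle and 0.122 to 0.286% with DEK (exact permutation p = 0.5, adjusted 0.818). Their share was the lower one with DEK in each pair and 5 of 7 were lower in 3 of 3 pairs, with a median of -0.37, while 0 passed within pairs. The 11 neutrophil markers took 0.693 to 6.53% and 0.656 to 5.83%, and 1, Lcn2, rose. All of these markers were above 0 counts in each of the 6 libraries. Exact two-sided permutation p-values for the monocyte, eosinophil and neutrophil shares were 0.3, 0.5 and 0.8 (adjusted 0.818, 0.818 and 0.857 over 15 lists). The 7 dendritic cell markers took 0.353 to 0.402% with vehicle and 0.402 to 0.630% with DEK, where the groups met without overlapping (exact permutation p = 0.1, adjusted 0.75). Cd74, an antigen presentation gene, made up most of that share, at 3496 CPM on average with vehicle and 5011 CPM with DEK (adjusted p = 0.0685, edgeR within pairs). The list's median log2 fold change was -0.05, 1 of 7 was higher in 3 of 3 pairs, and 0 of 7 passed. The part of cell makeup in the differences of the immediate early genes was not tested.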

How the data were processed

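RNA was profiled in 3 vehicle-treated and 3 DEK-treated libraries of lineage-depleted Dek -/- marrow. Per the labels' protocols the kit selects polyadenylated RNA and keeps strand. The deposited values are raw read counts per gene. Per the file headers they were made with featureCounts 1.6.1 over exons of an mm10 annotation, with no option for strand, paired reads or overlapping genes, so a read in exons of 2 genes was left out. The submitters' processing notes name Trim Galore, STAR, HTSeq and edgeR. Exonic lengths are those of the table.

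The software was edgeR 4.0.16 and, for the alternatives, limma 3.58.1 and DESeq2 1.42.0, under R 4.3.3. edgeR's filterByExpr kept 13803 of 24421 genes. DEK was compared with vehicle by edgeR's two-sided quasi-likelihood test (TMM scaling, robust dispersion, no block). The p-values were adjusted by Benjamini-Hochberg across the 13803 genes, and 0.05 was the threshold. A fit with the replicate number as a block followed as an alternative. Deviations from the group mean correlated across genes by 0.55, 0.56 and 0.80 for equal numbers, each above 0.1, so the numbers were taken as pairs. Numbers 1 and 2 also correlated across, by 0.52 and 0.41, so the rule cannot tell them apart. The block lowered the common biological coefficient of variation from 33.1% to 13.1%. Standard errors come from the F statistic, and log2 CPM used a prior count of 2. Scripts were tested on simulated data. All 33 genes are named by rule, and from each other list those called within pairs, or else the 2 with the smallest p. The genes and lists were chosen with earlier results of these data known.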

Additional observations from a re-analysis of the deposited data

How the results depend on the processing

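Without pairing, 0 genes were called under RLE scaling, with no filter on low counts, by DESeq2, by limma-voom and with any 1 library left out. With the replicate block, 3 were called, and 3 with RLE scaling, 9 with no filter, 9 by DESeq2 and 4 by limma-voom. A term for number 3 alone gave 4. Leaving out 1 pair in the replicate block gave 0 to 6. The calls for number 3 against numbers 1 and 2 were 17 by edgeR with TMM and 16 to 19 under the alternatives, with Jund lost when no filter was used. The median log2 fold change was 0.35 and ranged from 0.21 to 0.50 with 1 replicate number left out.

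Several differences that did not pass the threshold unpaired changed sign in other settings. Zfp36, among them, passed in 2 of the 19 alternative settings. Atf3 was at 0.00021 under RLE scaling, 0.0013 with no filter and 0.00093 by DESeq2. Under limma-voom, Klf4, Klf6 and Btg1 were at -0.037, -0.044 and -0.00091. In the replicate block, Klf4 and Klf6 were at -0.034 and -0.045, with RLE scaling at -0.033 and -0.043, with no filter at -0.029 and -0.040, by DESeq2 at -0.032 and -0.042, and by limma-voom at -0.024 and -0.047, where Btg1 was at -0.00063. With a term for number 3 they were at -0.037 and -0.040. With 1 library or pair left out, log2 fold changes ran from -0.16 to 0.18 for Atf3, -0.20 to 0.26 for Klf4, -0.36 to 0.24 for Klf6, -0.33 to 0.23 for Btg1, -0.26 to 0.48 for Btg2, -0.21 to 0.38 for Dusp2 and -0.21 to 0.49 for Jun. They ran from -0.30 to 0.93 for Jund, -0.048 to 0.36 for Fosl2, -0.0079 to 0.49 for Ier3, -0.0094 to 0.61 for Ier5, -0.25 to 0.66 for Klf2, -0.023 to 0.89 for Zfp36 and -0.18 to 0.76 for Gadd45b. For Dusp1 and Ppp1r15a, which passed within pairs, they ran from -0.023 to 1.56 and from -0.46 to 2.06, lowest without DEK replicate 3 and highest without vehicle replicate 3, since the other group then keeps its library numbered 3. Of these ranges, those with 1 pair left out of the replicate block included -0.015 without pair 1 and -0.28 without pair 3 for Klf6, -0.13 without pair 2 for Klf4, and -0.15 and -0.0067 without pair 3 for Btg1 and Btg2. Single libraries left out unpaired gave -0.13 to 0.13 for Atf3 and a low of -0.19 for Klf4. Of the values of single genes for DEK against vehicle, 512 kept direction and side of the threshold, 44 passed it and 52 changed sign.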
